A study of Mus musculus with 168 samples.

Results

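The genes described here are 8 markers that separate regulatory and activated CD4 T cells from resting ones: Foxp3, Ikzf2, Ctla4, Tnfrsf18, Tnfrsf4, Icos, Cd44 and Cd69. They were chosen by gene symbol in the probe annotation, and each was represented by 1 probe set out of those kept for 19752 genes. The study gave JAK inhibitors or vehicle by gavage to male C57BL/6 mice aged 6 weeks and measured RNA of sorted immune cells on 168 Affymetrix Mouse Gene 1.0 ST arrays. CD4 T cells of the spleen, labelled T4 and sorted as CD4+ with no exclusion marker given, account for 39 arrays from 39 animals. The other arrays hold spleen NK cells (27), dendritic cells (20), macrophages (33) and granulocytes (16), and peritoneal macrophages (33).

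Inhibitors are named by code alone, and no dose was found in the labels. SB00513404 was given for a prolonged course to 4 animals of experiment J25 (2 with 28 treatments and 2 with 14, taken 18 h after the last), and as 1 treatment to 2 animals taken at 18 h and 1 taken at 3 h. SB00526221 was given for a prolonged course to 5 animals (J2, J6 and J8) and as 3 treatments with cells taken at 4 h to 2 animals of J2. SB00526222 had 6 prolonged animals (J2, J3, J8 and J25), 2 at 4 h in J2 and 1 at 18 h after 1 treatment in J25. SB00526226 had 3 prolonged animals, all in J8, and 1 at 4 h in J2. SB00526228 had 1 prolonged animal, in J2. The pH 3 vehicle (0.5% MC at pH 3) had 3 animals in J2 and J8, and the plain vehicle (0.5% MC) had 7 prolonged animals over all 5 experiments and 1 animal of J25 taken 3 h after 1 treatment. Prolonged courses outside J25 were 14 or 15 treatments with cells taken 14 to 17 h after the last. The experiment is the letter and number that open each title, and the labels used here do not say what differed between experiments. The separation method of 1 array of SB00513404 (J25) is given as a FACSAria sort, and that of the other T4 arrays as dissection and trimming.

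Foxp3 encodes the transcription factor that defines the regulatory T cell lineage, and Ikzf2 encodes Helios, a zinc finger factor found in many regulatory T cells. Ctla4 is an inhibitory receptor for CD80 and CD86, and Icos is a co-stimulatory receptor for ICOS ligand. Tnfrsf18 encodes GITR and Tnfrsf4 encodes OX40, receptors of the tumour necrosis factor receptor family that both regulatory and activated T cells carry. Cd44 is a hyaluronan-binding adhesion receptor kept at high levels on memory and effector T cells, and Cd69 is an early activation antigen that holds cells in tissue. Regulatory T cells depend on interleukin-2, whose receptor signals through JAK1 and JAK3 to STAT5, a factor that binds the Foxp3 locus.

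In the RefSeq gene table (GRCm38.p6), Ctla4 (chr1:60909025-60915832) and Icos (chr1:60960773-61000322) are neighbours on chromosome 1. Ikzf2 lies further along the same chromosome (chr1:69531207-69687351). Tnfrsf4 (chr4:156013595-156016613) and Tnfrsf18 (chr4:156026322-156028894) are neighbours on chromosome 4. Cd44 lies at chr2:102811141-102901669, Cd69 at chr6:129267324-129275375 and Foxp3 at chrX:7579676-7595243. These are spans of whole genes, since the files give no positions for the probe sets.

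Promoter windows from 250 bases before to 50 bases after a start were available for 5 of the 8 members. The 4 windows shown belong to the members with a window whose difference between experiments J8 and J2 was largest (Ctla4, Tnfrsf4, Tnfrsf18 and Foxp3). The fifth, Cd44, moved more than Tnfrsf18 in other pairs of experiments (1.54 against 1.295 on the log2 scale in J6 minus J2). Foxp3 is shown at the second of its 2 listed starts, picked after the search because its window held a TTCNNNGAA match. Capitals mark matches, on either strand, to TTCNNNGAA, the palindrome that STAT factors bind, or to GGAAA, the core that NFAT factors bind. Overlapping matches run together as 1 stretch of capitals. All sequences are from RefSeq (GRCm38.p6), 5′ to 3′ on the plus strand of each gene, which is also the plus strand of the chromosome: Ctla4 chr1:60908775-60909074, Tnfrsf4 chr4:156013445-156013744, Tnfrsf18 chr4:156026072-156026371 and Foxp3 chrX:7580233-7580532.
Ctla4: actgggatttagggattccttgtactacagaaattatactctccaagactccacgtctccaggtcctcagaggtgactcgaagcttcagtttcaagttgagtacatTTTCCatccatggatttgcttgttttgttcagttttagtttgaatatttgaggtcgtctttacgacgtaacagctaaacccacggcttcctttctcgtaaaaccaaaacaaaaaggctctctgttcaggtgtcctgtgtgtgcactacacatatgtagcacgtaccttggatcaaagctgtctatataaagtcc
Tnfrsf4: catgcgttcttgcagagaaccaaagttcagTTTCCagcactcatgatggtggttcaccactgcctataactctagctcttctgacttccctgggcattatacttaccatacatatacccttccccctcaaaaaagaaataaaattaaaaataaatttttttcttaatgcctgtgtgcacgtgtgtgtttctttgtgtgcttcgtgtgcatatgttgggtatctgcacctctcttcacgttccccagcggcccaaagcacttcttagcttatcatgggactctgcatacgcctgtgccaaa
Tnfrsf18: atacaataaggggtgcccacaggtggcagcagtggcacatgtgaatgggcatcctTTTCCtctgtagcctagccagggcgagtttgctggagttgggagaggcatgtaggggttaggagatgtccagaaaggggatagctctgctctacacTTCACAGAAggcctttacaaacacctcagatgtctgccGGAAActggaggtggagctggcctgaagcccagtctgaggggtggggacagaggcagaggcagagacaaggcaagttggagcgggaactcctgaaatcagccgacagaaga
Foxp3: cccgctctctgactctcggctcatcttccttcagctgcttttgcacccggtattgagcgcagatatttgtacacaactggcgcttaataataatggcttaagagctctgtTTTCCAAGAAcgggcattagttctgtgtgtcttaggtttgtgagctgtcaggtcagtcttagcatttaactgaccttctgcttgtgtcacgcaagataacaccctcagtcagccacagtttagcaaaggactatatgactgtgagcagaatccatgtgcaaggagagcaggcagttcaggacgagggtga
The Tnfrsf18 window and this Foxp3 window each held 1 TTCNNNGAA match, and the Ctla4 and Tnfrsf4 windows held 0. GGAAA matched 1 time in the Ctla4, Tnfrsf4 and Foxp3 windows and 2 times in the Tnfrsf18 window. The window of the other Foxp3 start (chrX:7579426-7579725) and that of Cd44 each held 0 TTCNNNGAA and 2 GGAAA matches. Of 32851 mouse promoter windows of the same length, 8.3% held TTCNNNGAA and 61.3% held GGAAA, so these matches are common and are given as a description.

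The T4 arrays carried the genes of their label. The mean of the CD4 T cell markers ran from 11.04 to 11.53 (log2 intensity) over the 39 arrays, with Cd3e averaging 12.56 and Cd4 12.10, against array medians of 6.91 to 7.06. In 5 T4 arrays the mean of the macrophage, dendritic cell or granulocyte markers was above 7.5: SB00526221 at 4 h in J2 (animal 16, macrophage mean 8.24), SB00526228 in J2 (animal 28, with 8.42 for macrophage, 8.93 for dendritic cell and 9.26 for granulocyte markers), SB00513404 in J25 (animal 1, macrophage 7.98), SB00526226 in J8 (animal 68, macrophage 7.68) and the plain vehicle in J8 (animal 64, macrophage 7.73). For the inhibitor comparisons that hold these arrays, values without them are given beside the main ones. In sorted populations measured in bulk, fewer cells of a type and less RNA per cell cannot be told apart.

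In CD4 T cells 7 of the 8 genes, all but Cd69, differed between experiments, and no member was called in any comparison of an inhibitor with vehicle. In experiment J8 all 8 were higher than in J2, by 1.29-fold for Cd69 to 5.29-fold for Ctla4. Apart from Cd69, arrays of J3 and J6 stood near those of J8, and arrays of J25 near those of J2. Each experiment held its own plain vehicle array or arrays, with 1 inhibitor and 1 vehicle array each in J6 and J3, and experiment was a term in 1 fit over all 39 arrays with the group. A moderated F test over the experiments called 7 of the 8 members, all but Cd69 (adjusted p = 0.153), against 42.7% of the 11212 genes tested.

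**Figure D1:**
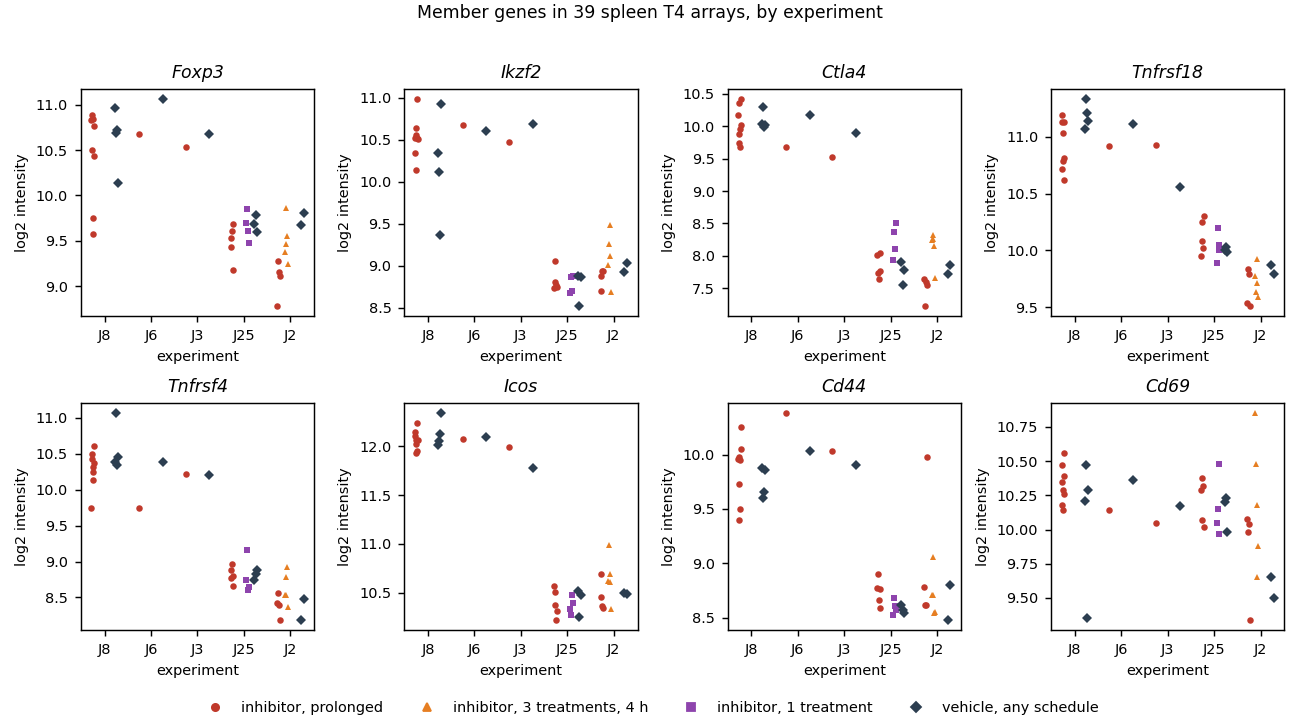
Log2 intensity of the 8 members in each of the 39 spleen T4 arrays, by experiment (J8, J6, J3, J25 and J2 from left to right), with red circles for prolonged inhibitor, orange triangles for inhibitor at 4 h, purple squares for inhibitor after 1 treatment and dark diamonds for vehicle. Ctla4 in J8 ran from 9.67 to 10.41 and in J2 from 7.23 to 8.33, while Cd69 overlapped between all experiments.

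Foxp3, the lineage factor, had a lowest, median and highest log2 intensity of 9.58, 10.71 and 10.97 over the 12 arrays of J8, against 8.78, 9.38 and 9.86 over the 11 arrays of J2. The 2 arrays of J6 had 10.68 (SB00526221) and 11.06 (vehicle), the 2 of J3 had 10.54 (SB00526222) and 10.68 (vehicle), and the 12 of J25 had 9.18, 9.61 and 9.85. The J8 and J2 arrays overlapped through 2 low J8 arrays, animal 69 under SB00526222 (9.58) and animal 68 under SB00526226 (9.75). These had the highest NK cell marker means of the T4 arrays, 7.49 and 7.53, beside a J8 median of 6.86. The next highest NK cell means, 7.33 in vehicle animal 64 and 7.21 in SB00526221 animal 63, came with Foxp3 at 10.72 and 10.83. The B cell marker means of animals 69 and 68 were 6.89 and 6.85, beside a J8 median of 6.38, with pH 3 vehicle animal 74 also at 6.85. The part of other cells in the Foxp3 values of these arrays was not tested. The fitted difference of J8 minus J2 was 1.22 (SE 0.19, limma adjusted p = 7.35e-06).

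Ikzf2, the Helios gene, had 9.37, 10.51 and 10.98 as lowest, median and highest over the J8 arrays, against a median of 8.94 and a highest of 9.48 in J2. Its J6 arrays had 10.68 under SB00526221 and 10.60 under vehicle, its J3 arrays had 10.47 under SB00526222 and 10.69 under vehicle, and its J25 arrays ran from 8.52 to 9.05. Only the lowest J8 array, vehicle animal 64, overlapped with J2. J8 minus J2 was 1.43 (SE 0.16, limma adjusted p = 8.78e-08).

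The inhibitory receptor Ctla4 showed the widest gap of the 8. Its lowest, median and highest values were 9.67, 10.01 and 10.41 in J8, against 7.23, 7.72 and 8.33 in J2. J6 had 9.68 (SB00526221) and 10.17 (vehicle), J3 had 9.52 (SB00526222) and 9.90 (vehicle), and J25 ran from 7.56 to 8.51 with a median of 7.93. No J8, J6 or J3 array overlapped with any J2 or J25 array. J8 minus J2 was 2.40 (SE 0.12, limma adjusted p = 2.81e-14), a 5.29-fold higher intensity.

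Icos, the other receptor of the CD28 family among the members, had 11.93, 12.07 and 12.34 in J8, against 10.33, 10.50 and 10.99 in J2, a gap between the groups wider than the range within either. Tnfrsf4 (OX40) had 9.74, 10.37 and 11.06 in J8, against 8.19, 8.48 and 8.93 in J2. Tnfrsf18 (GITR) had 10.62, 11.10 and 11.33 in J8, against 9.51, 9.77 and 9.92 in J2. In all 3 genes no J8 array overlapped with a J2 array. J8 minus J2 was 1.61 for Icos (SE 0.09, limma adjusted p = 4.41e-14), 1.92 for Tnfrsf4 (SE 0.13, adjusted p = 5.71e-12) and 1.27 for Tnfrsf18 (SE 0.10, adjusted p = 1.71e-10).

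Of the 2 activation markers, Cd44 moved with the experiment and Cd69 did so weakly. Cd44 had 9.40, 9.87 and 10.25 in J8, against a lowest of 8.48 and a highest of 9.98 in J2, where the highest array was animal 28 under SB00526228 and the next highest had 9.06. That array also carried granulocyte genes (Ly6g at 10.16), and Cd44 averaged 11.91 ± 0.42 (SD, n = 5) in vehicle granulocytes; the part of those cells in its Cd44 value was not tested. J8 minus J2 was 1.14 for Cd44 (SE 0.11, limma adjusted p = 8.22e-09). Cd69 had 9.35, 10.29 and 10.56 in J8, against 9.34, 9.98 and 10.85 in J2, with wide overlap. Its J8 minus J2 difference was 0.36 (SE 0.14, limma adjusted p = 0.0334), and the call was lost when any of 5 single arrays was left out (adjusted p 0.0555 to 0.173).

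All 8 members were thus called higher in J8 than in J2, where 2679 of the genes tested were called higher and 46.2% were called in either direction. J6 minus J2 called 7 of 8 members (16.4% of genes called), with Ctla4 at 2.32, Ikzf2 at 1.76, Foxp3 at 1.56 and Cd69 not called at 0.44 (adjusted p = 0.155). J3 minus J2 called 7 of 8 (9.85% of genes), with Ctla4 at 2.02, Ikzf2 at 1.67, Foxp3 at 1.29 and Cd69 at 0.35 (adjusted p = 0.346). These comparisons share the J2 arrays, and J6 and J3 had 2 arrays each.

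Set against J25 instead, J8 again called 7 of 8 members (28.3% of genes called). Ctla4 was at 2.36, Icos at 1.74, Ikzf2 at 1.61 and Foxp3 at 0.85, while Cd69 was at -0.06 (adjusted p = 0.836). J6 minus J25 called 7 of 8 (13.2% of genes) and J3 minus J25 called 7 of 8 (11.7% of genes), where Foxp3 was nearest to the threshold with 0.92 (adjusted p = 0.043) and lost its call with no filter (0.0512) and without 9 of the arrays in turn. J25 minus J2 called 0 of 8, beside 1.17% of all genes (131 genes, and 1562 at an unadjusted p under 0.05 by limma). The members' own J25 minus J2 values ran from -0.18 for Ikzf2 to 0.42 for Cd69 (adjusted p = 0.324), and for Foxp3 the value was 0.36 (95% interval -0.17 to 0.90). With array weights Cd69 (0.49, adjusted p = 0.00397) and Tnfrsf18 (0.28, adjusted p = 0.0318) were called in J25 minus J2, and Cd69 also in J6 minus J2 (0.47, adjusted p = 0.0384) and J3 minus J2 (0.38, adjusted p = 0.0456). Between J8, J6 and J3, limma called 0 genes in each pair, with 1501 genes at an unadjusted p under 0.05 for J8 minus J6, 1321 for J8 minus J3 and 104 for J6 minus J3.

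Genes that accompany these markers moved the same way between J8 and J2. Of 27 other regulatory T cell genes tested, 26 rose and 0 fell in J8, with a median of 1.53 on the log2 scale beside -0.01 over all genes and 1.35 over the members. Klrg1, an inhibitory receptor of terminally differentiated cells, was at 2.87 (SE 0.19, adjusted p = 2.06e-12), and Entpd1, the ectonucleotidase CD39, at 2.165 (SE 0.12, adjusted p = 9.36e-14). Cd83 was at 2.129 (SE 0.11, adjusted p = 2.81e-14), and Gpr83 was the exception at -0.22 (adjusted p = 0.16). Of 28 effector and memory CD4 genes, 26 rose and 0 fell (median 1.73), led by Id2, an inhibitor of E protein transcription factors, at 2.47, and by the chemokine receptors Cxcr6 at 3.58 and Cxcr3 at 2.74.

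Naive T cell genes went the other way. In J8, 11 of the 12 tested fell and 0 rose relative to J2, beside 22.3% of all genes called lower. Their median was -1.25, and this list too was chosen with earlier results known. Igfbp4 was at -3.11 (SE 0.21, adjusted p = 5.31e-12), Treml2 at -1.87 (SE 0.10, adjusted p = 4.41e-14), and the transcription factor genes Satb1 at -1.43 and Lef1 at -1.30. In J25 against J2, 0 of the 12 naive genes and 0 of the 27 regulatory T cell genes were called, and 1 of the 28 effector and memory genes was, Id2 at 0.64 (adjusted p = 0.00887).

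**Figure D2:**
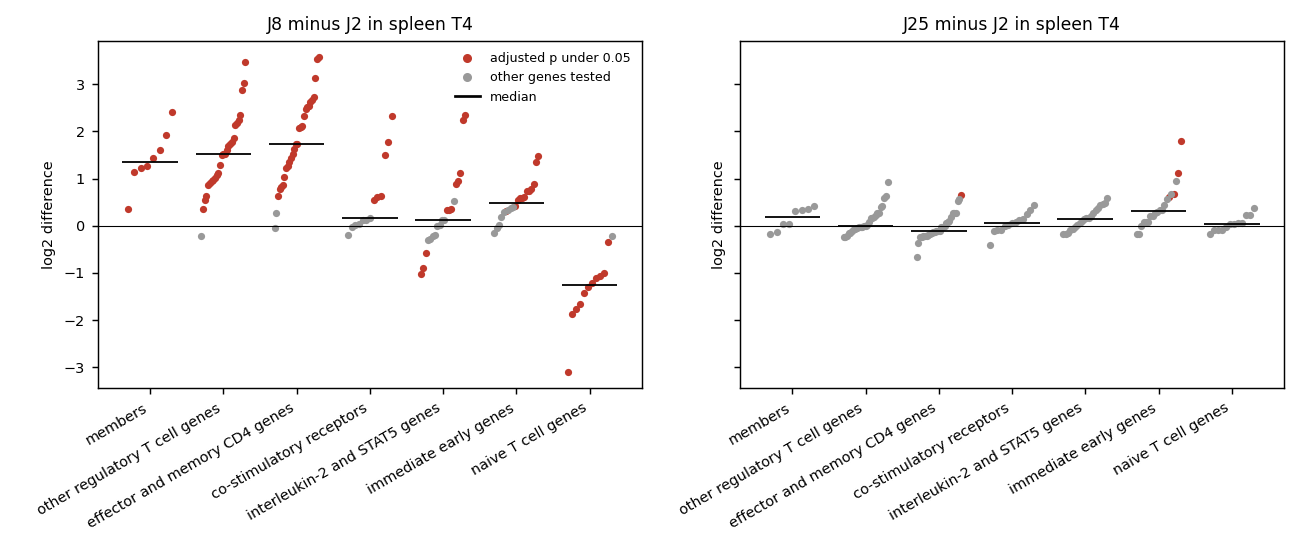
Differences between experiments in spleen T4 arrays (log2) for each gene of the members' list and of the other lists, as points (red past adjusted p 0.05), with the median of each list as a bar, for J8 minus J2 and J25 minus J2. In J8 minus J2 the regulatory and the effector and memory lists lie above 0 (medians 1.53 and 1.73) and the naive list below it (median -1.25).

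The interleukin-2 and STAT5 genes were split in J8 against J2, with 8 of 20 called higher, 3 lower and a median of 0.12. The 11 called of 20 stand near the 46.2% of all genes called in this comparison. Socs2, a feedback inhibitor of cytokine signalling, was at 2.35 (SE 0.14, adjusted p = 3.45e-13), and the receptor chains Il2rb and Il2ra were at 2.249 and 1.11. Bcl2, a survival gene, was at -1.02 (SE 0.12, adjusted p = 8.78e-08), Il4ra at -0.90 and the kinase gene Jak1 at -0.57. Among co-stimulatory and inhibitory receptors outside the members, 6 of 13 were called higher and 0 lower (median 0.16), again near the 46.2% of all genes. Pdcd1, the gene of PD-1, was at 2.33 (SE 0.14, adjusted p = 5.29e-13) and Tnfrsf9, the gene of 4-1BB, at 1.77 (SE 0.12, adjusted p = 5.31e-12), while Cd28 was at 0.02 and Cd27 at 0.04, neither called.

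Ligands of the members, which antigen-presenting cells carry, were also higher in J8 than in J2 T4 arrays, 3 of the 3 tested (median 0.80): Cd80 at 1.61, Cd86 at 0.80 and Icosl at 0.74. Immediate early genes, which rise quickly after stimulation, were higher for 12 of 20 (median 0.48), with Dusp1 at 1.47, Junb at 1.35, Egr2 at 0.77 and Btg2 at 0.54. In J25 minus J2, where no member was called, 4 of these 20 were higher, beside 0.829% of all genes: Jun at 1.80, Junb at 1.11, Zfp36 at 0.68 and Btg2 at 0.60. Interferon-stimulated genes were called 5 higher and 2 lower of 15 (median 0.15), with Ifi27l2a at 1.53 and Oas2 at -1.37, so 7 of 15 were called beside 46.2% of all genes.

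Markers of other cells differed between the same experiments. The mean of the CD4 T cell markers had a median of 11.36 in J8 and 11.28 in J2. The NK cell list (3 of 6 tested, 2 higher and 1 lower) had a mean of 6.68 to 7.53 in the J8 arrays and 5.95 to 6.34 in the J2 arrays. Klrb1c, the gene of NK1.1, had a lowest, median and highest of 8.98, 9.71 and 10.59 in J8, against 4.89, 5.17 and 6.09 in J2. Klrd1 had a median of 8.41 in J8 (highest 9.91) and 7.68 in J2, and Prf1 7.89 in J8 and 8.47 in J2. The other list genes lay below the array medians and were not tested. Among these, Ncr1, which NK cells express throughout, had 4.65, 5.21 and 5.93 in J8 and 4.68, 5.06 and 5.64 in J2. Its mean in the NK arrays was 13.38. Klra8 had medians of 4.92 in J8 and 5.06 in J2, and Gzma 5.41 and 5.02.

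The macrophage list mean had a median of 6.90 in J8, 6.74 in J25 and 6.29 in J2. The dendritic cell list had 6.65 in J8 and 6.29 in J2, the B cell list 6.38 in J8 and 6.16 in J2, the CD8 T cell list 7.28 in J8 and 7.63 in J2, and the granulocyte list 5.90 in J8 and 5.97 in J2. The part of other cells in the J8 minus J2 differences was not tested beyond this: without the 5 arrays above 7.5, all 8 members stayed called in J8 minus J2, with Ikzf2 at 1.57 and Cd69 at 0.47.

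Inhibitor courses were compared with vehicle inside the same fit. The 19 arrays of prolonged inhibitor were set against the 7 of prolonged plain vehicle, with compounds weighted by their arrays. Limma called 0 of the 8 members and 0% of the 11212 genes, with 402 genes at an unadjusted p under 0.05. In simulated data of the same design, genes were drawn independently and changes were planted in many genes. There, log2 changes of 0.5 were recovered for 83% of the changed genes and changes of 1 for 99%. Planted changes in many genes ease the adjusted threshold. These shares therefore do not say how often a change of that size in a member alone would be called.

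**Figure D3:**
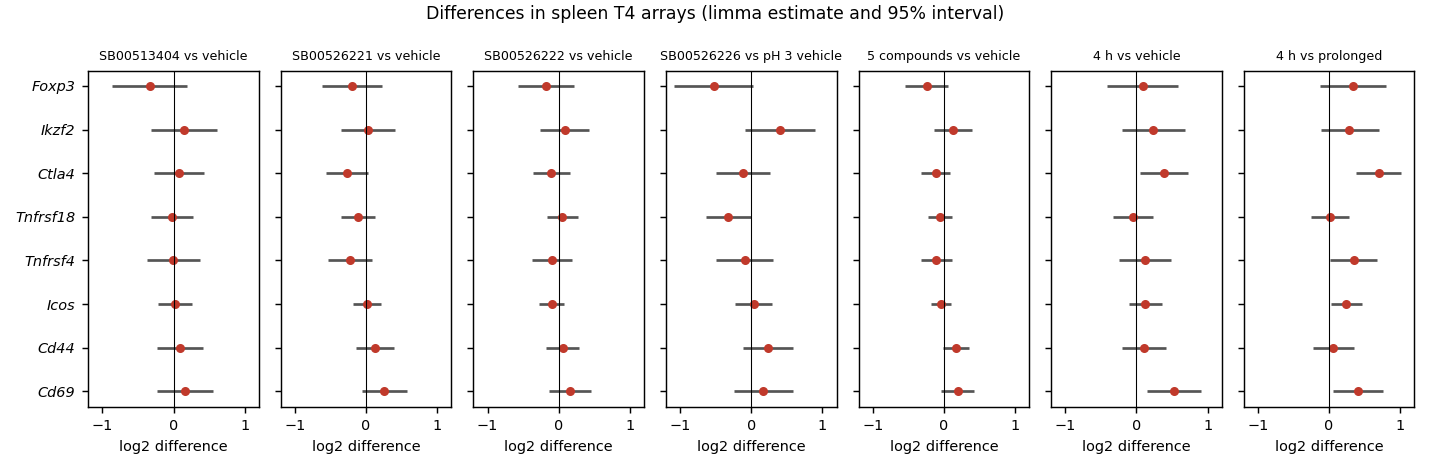
Differences in spleen T4 arrays (log2, with 95% intervals) for the 8 members, with 1 panel for each comparison: 3 prolonged compounds and all 5 together against the plain vehicle, SB00526226 against the pH 3 vehicle, and 4 h against vehicle and against prolonged courses. The values of all 5 compounds together ran from -0.24 for Foxp3 to 0.19 for Cd69, and Ctla4 stood highest at 4 h against prolonged courses (0.70).

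Foxp3 had the lowest value of the members under prolonged inhibitors, -0.24 (SE 0.15, 95% interval -0.55 to 0.06, adjusted p = 0.975), and was below its experiment's vehicle mean in 14 of 19 arrays. Without the arrays with myeloid markers it was at -0.18 (adjusted p = 1). In J2 the inhibitor arrays had 8.78 and 9.28 (SB00526221), 9.16 (SB00526222) and 9.11 (SB00526228), against 9.81 in the plain vehicle array and 9.67 in the pH 3 vehicle array. All 4 were below both vehicle arrays of J2. In J8 the inhibitor arrays had 10.83 and 10.50 (SB00526221), 10.89, 9.58 and 10.84 (SB00526222) and 9.75, 10.43 and 10.77 (SB00526226), against 10.72 and 10.14 in the plain vehicle and 10.97 and 10.69 in the pH 3 vehicle. These arrays overlapped. Inhibitor minus vehicle within experiments was -0.73 in J2, -0.38 in J6, -0.25 in J25, -0.14 in J3 and 0.02 in J8, with 1 vehicle array each in J2, J3 and J6 and 2 each in J8 and J25.

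The other members had values near 0 under prolonged inhibitors. Cd69 was at 0.19 (95% interval -0.04 to 0.42, above vehicle in 14 of 19 arrays) and Cd44 at 0.17 (-0.01 to 0.36, above in 12 of 19). Without the arrays with myeloid markers, Cd69 was at 0.06 and Cd44 at 0.11. Ikzf2 was at 0.13 (-0.09 without those arrays), Ctla4 at -0.12, Tnfrsf4 at -0.11, Tnfrsf18 at -0.06 (0.02 without them) and Icos at -0.04, with adjusted p from 0.975 to 0.978 over the 8 members. These intervals bound the mean change, and do not show that expression was equal.

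Compounds were also compared each on its own. SB00513404 had Foxp3 at 9.53, 9.43, 9.61 and 9.18, against 9.69 and 9.78 under prolonged vehicle in J25, so all 4 were below both; the fitted difference was -0.34 (SE 0.26, limma adjusted p = 1), or -0.36 without animal 1 and the other arrays with myeloid markers. The other members were between -0.02 and 0.17 under it. SB00526221 gave its smallest unadjusted p for Ctla4, -0.27 (SE 0.14, limma adjusted p = 1), and SB00526222 had Foxp3 at -0.18 and Cd69 at 0.16 (adjusted p = 1 for each). Limma called 0 genes for each of these 3 compounds, whose comparisons share the plain vehicle arrays.

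SB00526226 was set against the pH 3 vehicle, although the labels do not state which vehicle this compound or SB00526228 was given in, and the pooled comparison above set both against the plain one. Foxp3 had 9.75, 10.43 and 10.77 under the compound in J8, against 10.97 and 10.69 in the pH 3 vehicle of J8, and Tnfrsf18 had 10.62, 10.81 and 11.13, against 11.07 and 11.33. Both genes overlapped between the groups by 1 array of the compound. In that order the arrays of the compound were taken 17, 14 and 17 h after the last treatment, and both pH 3 vehicle arrays of J8 at 14 h. Compound and hour thus cannot be fully told apart here. The fitted differences were -0.53 for Foxp3 (SE 0.27, 95% interval -1.09 to 0.03, limma adjusted p = 0.496) and -0.33 for Tnfrsf18 (SE 0.15, -0.64 to -0.01, adjusted p = 0.456), each below the vehicle mean in 3 of 3 arrays. Ikzf2 was at 0.40 (SE 0.24, adjusted p = 0.545), above it in 3 of 3. The count of genes called was 0 by limma, or 1177 before adjustment (p under 0.05), and without animal 73 the count was 246 genes and 0 members (Foxp3 at -0.76, adjusted p = 0.162). Without the arrays with myeloid markers, which removes animal 68, Foxp3 was at -0.24 (adjusted p = 0.713), Tnfrsf18 at -0.20 (0.574) and Ikzf2 at 0.43 (0.277). Against the plain vehicle, a comparison added after seeing the data, SB00526226 had Foxp3 at -0.31 (95% interval -0.83 to 0.21, limma adjusted p = 0.619), Tnfrsf18 at -0.19 (-0.48 to 0.10) and Ikzf2 at 0.37 (-0.09 to 0.82), with 0 genes called and 1177 at an unadjusted p under 0.05. In J8 the Foxp3 arrays of the compound overlapped with those of the plain vehicle (10.72 and 10.14). The 2 vehicles had 0 genes called between them (412 at an unadjusted p under 0.05), with Foxp3 at 0.22 in the pH 3 vehicle minus the plain one (95% interval -0.28 to 0.72).

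Pairs of compounds at the prolonged schedule were compared 3 times, over SB00526221, SB00526222 and SB00526226, and limma called 0 genes in each (416, 834 and 868 at an unadjusted p under 0.05). SB00526222 minus SB00526221 was 0.17 for Ctla4 (95% interval -0.13 to 0.46). SB00526226 minus SB00526221 was 0.34 for Ikzf2 (-0.13 to 0.81), and SB00526226 minus SB00526222 was -0.24 for Tnfrsf18 (-0.52 to 0.04). The intervals do not show that the compounds act alike.

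Cells taken 4 h after the last of 3 treatments came only from J2. Ctla4 had 8.25 and 8.33 under SB00526221 and 8.26 and 8.15 under SB00526222 at 4 h, against 7.64 and 7.23 under prolonged SB00526221 and 7.60 under prolonged SB00526222 in J2. All 4 arrays at 4 h were above all 3 prolonged arrays. The plain and pH 3 vehicle arrays of J2 had 7.86 and 7.72, between these 2 sets. SB00526226, which had no prolonged array in J2, was left out of this comparison, and its 4 h array had 7.66, below both vehicle arrays. The fitted difference over these 2 compounds was 0.70 (SE 0.15, 95% interval 0.38 to 1.01), which missed the threshold over all genes (limma adjusted p = 0.122), where 7 genes or 0.0624% were called. With array weights it passed (0.71, limma adjusted p = 0.0145). Without the experiment term, the J2 arrays at 4 h were set against prolonged arrays of J2, J3, J6, J8 and J25 alike. The difference then turned to -0.79 (limma adjusted p = 0.401).

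The other members at 4 h against prolonged courses were positive as well, with Cd69 at 0.41 (95% interval 0.06 to 0.76), Tnfrsf4 at 0.35 (0.02 to 0.68), Icos at 0.24 (0.03 to 0.46), Foxp3 at 0.34, Ikzf2 at 0.29, Cd44 at 0.06 and Tnfrsf18 at 0.01, all with limma adjusted p = 1. Macrophage markers were positive in 6 of 6 tested in the same comparison (median 0.63, 0 called), with animal 16 at 4 h the highest; their part was not tested, and without the arrays with myeloid markers Ctla4 was at 0.68 (adjusted p = 0.314), Cd69 at 0.53, Tnfrsf4 at 0.35, Foxp3 at 0.32, Ikzf2 at 0.26, Icos at 0.15, Tnfrsf18 at 0.04 and Cd44 at -0.02 (adjusted p = 0.649 for Cd69 and 1 for the others).

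Against the vehicle, which had no 4 h schedule, Cd69 at 4 h had 10.85 and 10.48 under SB00526221, 9.65 and 10.18 under SB00526222 and 9.88 under SB00526226, against 9.50 in the plain and 9.65 in the pH 3 vehicle array of J2. All 5 were above the plain vehicle array, and the lowest was level with the pH 3 one. The fitted difference was 0.53 (SE 0.19, 95% interval 0.15 to 0.91, limma adjusted p = 1), and 0.31 without the arrays with myeloid markers. Ctla4 was at 0.39 (SE 0.17, 95% interval 0.05 to 0.73, limma adjusted p = 1), above the vehicle in 4 of 5 arrays. In this comparison 1 gene, or 0.00892% of those tested, was called.

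Lists that JAK signalling feeds were looked at beside the members at 4 h. Of 15 interferon-stimulated genes 0 were positive and 0 were called against vehicle, with a median of -0.41 beside 0.01 over all genes. Rsad2, an antiviral enzyme, was at -0.98 (limma adjusted p = 0.125) and Rtp4 at -0.78. This was not particular to 4 h. Prolonged inhibitors together also had 0 of 15 positive (median -0.17), as did SB00513404 (-0.34), SB00526221 (-0.40) and the single treatment at 18 h (-0.31). Prolonged SB00526222 had 2 positive (-0.20), and SB00526226 against the pH 3 vehicle had 7 (-0.01). In each of these 0 were called. Of 20 interleukin-2 and STAT5 genes 7 were positive and 0 were called (median -0.12), with Bcl2 at -0.58 (limma adjusted p = 0.563) and Socs2 at -0.42. The 27 other regulatory T cell genes had a median of -0.01, with 0 called.

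A single treatment with cells taken at 18 h gave the same direction for Ctla4. In J25 it had 7.94 and 8.37 under SB00513404 and 8.51 under SB00526222, against 7.91 and 7.56 under prolonged vehicle, so all 3 were above both. The difference was 0.49 (SE 0.18, 95% interval 0.12 to 0.87, limma adjusted p = 0.999), and 0 genes passed in limma, beside 212 before adjustment (p under 0.05). At 3 h after 1 treatment the SB00513404 array had 8.11 and its vehicle array 7.79, with no replicate.

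Other spleen cells served as contrast. Members that did not pass the filter on low values in another type entered the comparison with it only through T4, so for these the levels alone are given: Ctla4 in all 4 types, Cd69 in dendritic cells and macrophages, and Foxp3, Tnfrsf18 and Tnfrsf4 in macrophages. In vehicle animals of the prolonged schedule, Foxp3 averaged 10.27 ± 0.55 in T4 (SD, n = 7), against 6.96 ± 0.15 in NK cells (n = 3), 7.05 ± 0.23 in dendritic cells (n = 6), 6.82 ± 0.08 in macrophages (n = 8) and 7.39 ± 0.12 in granulocytes (n = 5). Ctla4 averaged 9.06 ± 1.21 in T4 and 5.27 to 5.49 in the other 4 types, and its T4 values were 9.90 to 10.17 in J8, J6 and J3 and 7.56 to 7.91 in J25 and J2. In the fit with experiment and animal, Foxp3 was above NK cells by 3.47 in T4 (adjusted p = 1.09e-13), above dendritic cells by 3.42 and above granulocytes by 3.09.

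**Figure D4:**
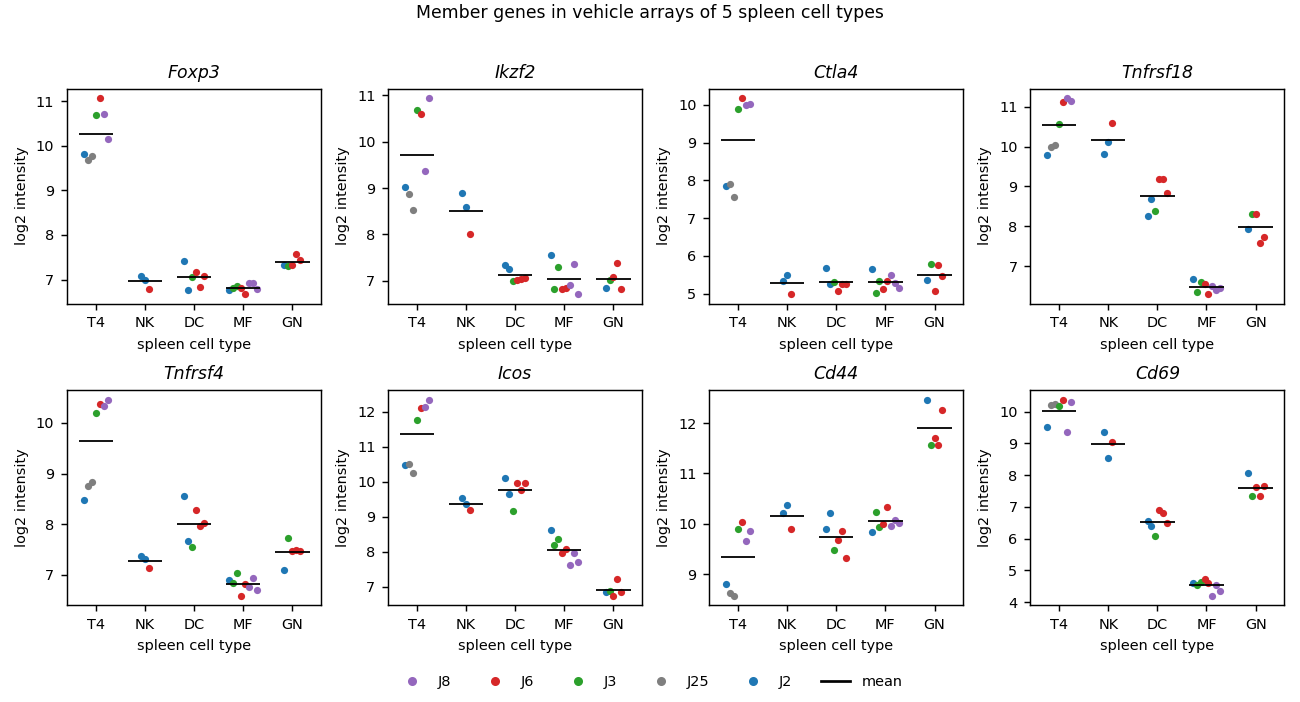
Log2 intensity of the 8 members in spleen arrays of the plain vehicle at the prolonged schedule, by cell type (T4, NK, DC, MF and GN from left to right), 1 point per array coloured by experiment, with the mean as a bar. Foxp3 and Ctla4 are highest in T4, while Cd44 averages 11.91 in granulocytes and 9.35 in T4.

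Icos and Ikzf2 were called higher in T4 than in each of the other 4 types, by 1.59 (Ikzf2 against NK, adjusted p = 0.000809) to 4.88 (Icos against granulocytes). Tnfrsf4 was called higher than in NK cells (2.48), dendritic cells (1.84) and granulocytes (2.43), and averaged 9.63 ± 0.89 in T4 and 6.82 ± 0.14 in macrophages. Tnfrsf18 averaged 10.55 ± 0.61 in T4 and 10.17 ± 0.38 in NK cells, which was not called (0.40, adjusted p = 0.387), and was called higher than in dendritic cells and granulocytes. Cd69 was 1.10 above NK cells in T4 (adjusted p = 0.000824) and 2.48 above granulocytes, and averaged 10.01 ± 0.41 in T4 and 4.53 ± 0.17 in macrophages, with 6.08 to 6.89 in dendritic cells. Cd44 went the other way, at 9.35 ± 0.65 in T4 and 11.91 ± 0.42 in granulocytes, a difference of -2.29 (adjusted p = 5.99e-10), and was not called against NK cells, dendritic cells or macrophages.

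Of the members that passed the filter in both types, 5 of 7 were called higher in T4 than in NK cells (7.3% of the 12492 genes called higher), 5 of 6 than in dendritic cells (24%), 2 of 3 than in macrophages (26.1%) and 6 of 7 than in granulocytes (41.5%). In either direction 13.7%, 40.6%, 51% and 72.6% of genes were called for these 4 types in turn. Shares of genes in comparisons between cell types, here and below, are over all genes in the fit. They are not limited to genes that passed the filter in both types, as the members are. The effect of prolonged SB00526221 and SB00526222 in T4 minus that in each other type was called for 0 members, beside 0%, 0%, 0% and 0.0382% of the genes tested for NK cells, dendritic cells, macrophages and granulocytes (0.00764% called higher for granulocytes). Within these types, prolonged inhibitors against vehicle called 0 of the members tested beside 0%, 0%, 0.00908% and 0.0273% of genes, and inhibitors at 4 h called 0 beside 0.119%, 0%, 0.0182% and 0.0455%. The members furthest from 0 there were both in granulocytes at 4 h, Cd69 at -0.87 and Tnfrsf4 at 0.51 (limma adjusted p = 0.793 for each).

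The gap between experiments was then set against the same gap in other cells, which came from the same experiments and in part from the same animals. J6 and J2 had all 5 spleen types, and J8 had T4, NK cells and macrophages. In J6 minus J2, Ikzf2 was 1.75 in T4 in the joint fit, and this exceeded the difference in NK cells by 2.281, in dendritic cells by 1.91, in macrophages by 2.33 and in granulocytes by 1.50. Of the members that passed the filter in both types, 6 of 7 were called higher in T4 minus NK cells, 6 of 6 in T4 minus dendritic cells, 3 of 3 in T4 minus macrophages and 6 of 7 in T4 minus granulocytes. Beside these, 3.83%, 4.38%, 3.91% and 2.8% of genes were called higher, and 4.69%, 5.77%, 5.79% and 3.45% in either direction. Cd69 was the exception, with 0.03 against NK cells and 1.00 against granulocytes (adjusted p = 0.191). Ctla4 in the other types lay below the array medians, where a fall could not be seen. Some members that passed the filter also stood near the medians (6.91 to 7.06 in T4) in vehicle arrays. Foxp3 averaged 6.96 in NK cells, 7.05 in dendritic cells and 7.39 in granulocytes. Ikzf2 averaged 7.12 in dendritic cells, 7.04 in macrophages and 7.03 in granulocytes, Tnfrsf4 7.27 in NK cells and Icos 6.90 in granulocytes. For these, in J6 and J8 alike, the excess mostly restates the T4 difference.

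**Figure D5:**
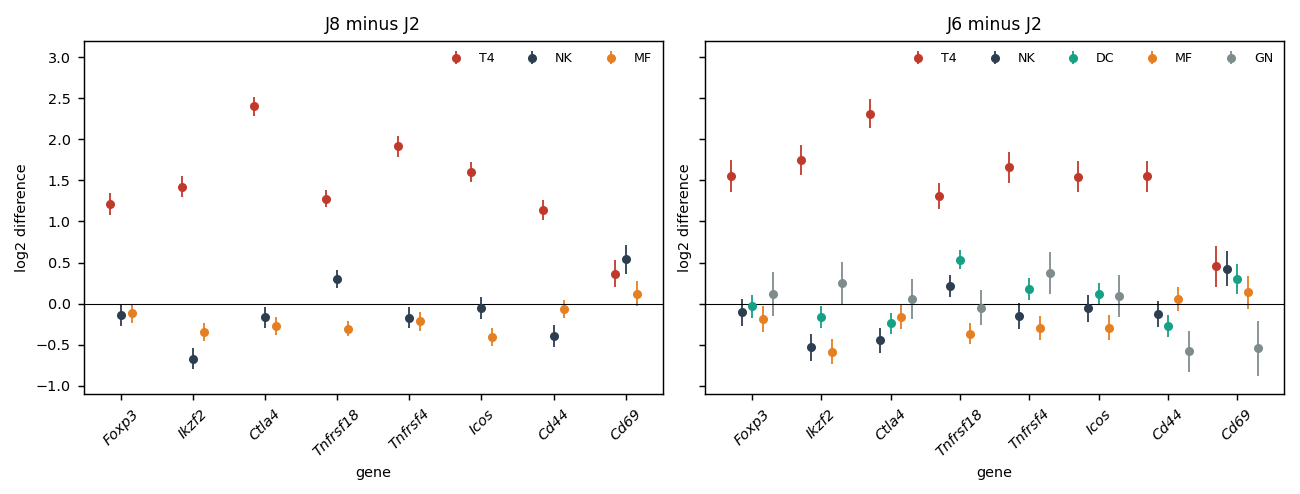
Differences between experiments (log2) for the 8 members in each spleen cell type, J8 minus J2 in 3 types and J6 minus J2 in 5, with points for the limma estimates and bars for 1 SE on either side. Ikzf2 lies at 1.75 in T4 for J6 minus J2, above its value in every other type. Points of members that did not pass the filter in a type, such as Ctla4 outside T4, are not compared.

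In J8 minus J2, T4 exceeded NK cells by 2.09 for Ikzf2, 1.66 for Icos and 1.35 for Foxp3, and exceeded macrophages by 1.77 for Ikzf2, 2.01 for Icos and 1.21 for Cd44. Of the members that passed the filter in both types, 6 of 7 were called higher in T4 minus NK cells, all but Cd69, and 3 of 3 in T4 minus macrophages. Beside these, 7.12% of genes were called higher for NK cells and 7.6% for macrophages, and 11.8% and 16.7% in either direction. In NK cells themselves Ikzf2 was lower in J8 than in J2 (-0.67, adjusted p = 8.25e-05) and Cd44 too (-0.39, adjusted p = 0.0237), while Cd69 was higher (0.54, adjusted p = 0.0194), and J6 minus J2 gave -0.53 for Ikzf2 there (adjusted p = 0.0264), beside 7.44% of genes called. In macrophages Icos was lower in J8 (-0.41, adjusted p = 0.00432), as was Ikzf2 (-0.35, adjusted p = 0.0161).

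Within experiments, the members were compared with Foxp3 over the 39 T4 arrays after the mean of each experiment was subtracted, with permutation p over 100000 permutations and adjustment over 7 genes. Tnfrsf18 had r = 0.51 and rho = 0.44 (permutation p = 0.00493, adjusted p = 0.0345), and Ctla4 had r = 0.37 and rho = 0.41 (adjusted p = 0.0711 for r and 0.0423 for rho). The Tnfrsf18 relation was r = 0.70 within J2, 0.55 within J8 and 0.21 within J25, with adjusted permutation p of 0.121, 0.211 and 0.844. Over all experiments the call rested in part on 2 arrays, J8 animals 69 and 68. They had the lowest Foxp3 of J8 and the highest NK cell marker means of the T4 arrays. The next highest NK cell means, in J8 animals 64 and 63, came with Foxp3 at 10.72 and 10.83. Without animals 69 and 68 r was 0.30 (adjusted permutation p = 0.4). J2 holds neither array. Tnfrsf4 had r = 0.23, Icos 0.10, Cd44 0.09, Ikzf2 0.05 and Cd69 -0.11, none past the threshold. On residuals of both experiment and group the call moved to Cd44 (r = 0.62, adjusted permutation p = 0.0216), with Tnfrsf18 at 0.45 (0.103). J8 animals 69 and 68 also had the lowest Cd44 of J8, 9.40 and 9.50. With experiment means alone subtracted, Cd44 had r = -0.22 without these 2 arrays. It had r = -0.27 within J2, 0.60 within J8 and -0.14 within J25, none past the threshold. The residuals were not run without the 2 arrays.

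As a description over the same 39 arrays, the genes most like Foxp3 by r were Idua (0.83), Dnaaf5 (0.82), Coro7 (0.80), Rfx1 (0.80) and St3gal1 (0.80). Those most like Cd44 were Plxnc1 (0.89), Gsap (0.87), Dock5 (0.86), Slc12a2 (0.85) and Tbc1d4 (0.85). Those most like Cd69 were Dnaja1 (0.77), Hsp90aa1 (0.75), Chordc1 (0.73), St13 (0.73) and Hspa8 (0.71), of which Dnaja1, Hsp90aa1 and Hspa8 encode heat shock proteins. Genes measured on the same array share its background, RNA quality and sort, and genes are not independent replicates.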

How the data were processed

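RNA of sorted mouse cells was measured on 168 arrays. Per the submitters' processing notes, the deposited intensity of each probe set came from RMA in Affymetrix Power Tools. Tool versions, and which arrays were normalized as a set, are not given in the sources read for this work. The deposited intensity was on a linear scale (array medians 119.5 to 142.3, lowest value 5.11), so log2 was taken here without a pseudocount.

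Of 24922 probe sets, 21425 carried 1 gene symbol, 1399 several and 2098 none; those with several or none were left out. Per gene the probe set with the highest mean was kept, and each member had 1. No 2 arrays were identical (highest correlation between T4 arrays 0.9967). With arrays, precision is limited by their number.

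Groups came from the labels. T4 arrays were fitted with limma 3.58.1 in R 4.3.3, with group and experiment as fixed effects, on genes above the array median in at least 3 T4 arrays. Benjamini-Hochberg adjustment ran over all 11212 genes tested, at a threshold of 0.05, and tests were two-sided. Groups of 1 array are assumed to vary like the others. Fits over cell types held animal as a random block. The labels do not state independent cultures or litters, so each p-value reflects only how these animals vary. Simulated data were used to test the fit. Promoter sequences are from RefSeq.

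The members and gene lists were chosen with earlier results of these data known. Pairs of experiments, their contrast across cell types the removal of arrays with myeloid markers and SB00526226 against the plain vehicle were added after seeing the data. Other named genes are up to 4 per list and contrast past the threshold by moderated statistic, or up to 2 by p where none passed, and the 5 most like Foxp3, Cd44 or Cd69. Other normalization, filters, covariates, array weights and leaving out each array were tried as alternatives.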

Additional observations from a re-analysis of the deposited data

Results flagged for a closer look

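By the test of the difference itself (limma, adjusted p under 0.05), members that passed the filter on low values in both types stood higher in J6 minus J2 in T4 than in the other spleen type. The excess of T4 over NK cells was 1.67 for Cd44, 1.66 for Foxp3, 1.61 for Icos, 2.281 for Ikzf2, 1.09 for Tnfrsf18 and 1.81 for Tnfrsf4 (log2). Over dendritic cells it was 1.82 for Cd44, 1.58 for Foxp3, 1.43 for Icos, 1.91 for Ikzf2, 0.77 for Tnfrsf18 and 1.48 for Tnfrsf4. Over macrophages it was 1.49 for Cd44, 1.84 for Icos and 2.33 for Ikzf2. Over granulocytes it was 2.132 for Cd44, 1.44 for Foxp3, 1.46 for Icos, 1.50 for Ikzf2, 1.36 for Tnfrsf18 and 1.29 for Tnfrsf4.

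In J8 minus J2 the excess of T4 over NK cells was 1.53 for Cd44, 1.35 for Foxp3, 1.66 for Icos, 2.09 for Ikzf2, 0.98 for Tnfrsf18 and 2.08 for Tnfrsf4. Over macrophages it was 1.21 for Cd44, 2.01 for Icos and 1.77 for Ikzf2. These contrasts share the T4 arrays, and those of the same pair of experiments are not independent of each other. Foxp3, Ikzf2, Tnfrsf4 and Icos stood near the array medians in some of the other types, as given above. There the excess mostly restates the T4 difference.

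Icos in the 5 vehicle granulocyte arrays had 1 array far from the others, J6 animal 56 at 7.23, with the nearest array at 6.86 and the lowest at 6.74. It was 1 of 56 sets of a gene in a group that were looked at, and chance gives such a gap in about 1 of 20 sets.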

How the results depend on the processing

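The 7 members called between experiments by the F test stayed called under every alternative run, and no called member turned its sign. Of 2228 member calls between experiments and cell types, 2210 held when 1 array was left out, and 68 of 3744 uncalled inhibitor values changed sign. Uncalled inhibitor values changed sign in 34 of 96 cases without the experiment term, in 16 with the experiment as a random block, in 16 with array weights, in 17 without the arrays with myeloid markers and in 4 with quantile normalization.

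Array weights moved the counts of genes called to 203 for SB00513404 against vehicle (from 0), 1 for the pH 3 vehicle against vehicle, 19 at 4 h against vehicle, 26 at 4 h against prolonged courses, 2 at 18 h after 1 treatment, 7594 for the F test, 2766 for J25 minus J2, 3739 for J3 minus J2, 3301 for J6 minus J2, 3742 for J3 minus J25, 3178 for J6 minus J25, 11 for J8 minus J3 and 1 for J8 minus J6. Without the experiment term there were 3 genes at 4 h against vehicle and 18 against prolonged courses. With the experiment as a random block the count at 4 h against vehicle was 0, and with J2 alone it was 2, and 3 against prolonged courses. Without the arrays with myeloid markers it was 2 at 4 h against prolonged courses and 410 for J25 minus J2. With array weights Cd69 was called in J25, J6 and J3 minus J2 and Tnfrsf18 in J25 minus J2, and Cd69 was called in the F test (adjusted p = 0.000969), as it was without the arrays with myeloid markers (0.0174) and without vehicle animal 64 (0.0168). The number of members correlated with Foxp3 was 0 with J2 alone, J8 alone, J25 alone or without the 2 farthest arrays. On residuals of experiment and group it was 1, Cd44.

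Leaving out 1 array at a time gave counts of 0 to 4 genes at 4 h against vehicle, 1 to 10 at 4 h against prolonged courses (1 without SB00526221 animal 16 or SB00526222 animal 26 at 4 h, or prolonged SB00526222 animal 18), 0 to 246 for SB00526226 against the pH 3 vehicle (246 without animal 73), 0 to 1 for SB00526226 against SB00526221 and against SB00526222, 3734 to 5326 for the F test, 11 to 339 for J25 minus J2, 336 to 1366 for J3 minus J2, 470 to 2249 for J6 minus J2, 4109 to 5391 for J8 minus J2, 498 to 1543 for J3 minus J25, 352 to 1955 for J6 minus J25, 1867 to 3404 for J8 minus J25 and 0 to 1 for J8 minus J6. The prolonged effect in T4 minus that in dendritic cells gave 0 to 1 and minus that in granulocytes 3 to 9. Vehicle T4 against NK cells, dendritic cells, macrophages and granulocytes gave 1259 to 1888, 4259 to 5311, 5863 to 6601 and 8239 to 9267. The other comparisons stayed at 0. Tnfrsf4 and Foxp3 lost their calls in J6 minus J25 without the J6 vehicle array (adjusted p = 0.0556 and 0.223), and Tnfrsf18 in J3 minus J25 without the J3 inhibitor array (0.269). Foxp3 lost its call in J3 minus J2 without the J3 inhibitor array (adjusted p = 0.0873) and in J3 minus J25 with no filter (0.0512). Between cell types in vehicle arrays, leaving out 1 array also added calls. Cd44 was called lower in T4 than in macrophages without macrophage replicate 1 (-0.46, limma adjusted p = 0.0496), T4 replicate 4 (-0.52, 0.0383) or T4 replicate 5 (-0.54, 0.0276). Tnfrsf18 was called higher in T4 than in NK cells without T4 replicate 1 (0.73, limma adjusted p = 0.046). The causes were not tested.

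No paired analysis was possible because replicate numbers follow the order of deposition, and each T4 array is from another animal, so nothing pairs T4 arrays across treatment groups. Between cell types animals were shared in part and were a random block; without that block all 49 member calls held. Against the plain vehicle, SB00526226 called 0 genes. Other probe sets were not run, since each member has 1. J3 and J6 rest on 2 T4 arrays each. J2, the only experiment with 4 h arrays, held 1 plain vehicle array. The fitted 4 h comparison with vehicle therefore also drew on vehicle arrays of other experiments through the experiment term. Foxp3 was at 0.09 and Cd44 at 0.11 in that fit, but at -0.32 and -0.08 within J2. The other members had the same sign in both.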
